A study of Rattus norvegicus with 29 samples.

Results

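The insulin-like growth factor axis was followed in CA1 of the rat hippocampus at 3 ages through 8 genes: Igf1, Igf1r, Igf2r, Insr, Igfbp2, Igfbp3, Igfbp5 and Igfbp6. Every probe set whose only gene symbol in the annotation of the rat array platform is one of these names was taken, which gave 18 probe sets of the 8740 on the array that are not controls, and 8 of 4736 singly named genes. The samples are hippocampal CA1 tissue of male Fischer rats of 4 months (young, 9 arrays), 14 months (mid-aged, 10 arrays) and 24 months (aged, 10 arrays), 1 single-colour Affymetrix array for each sample. The rats of all 3 ages had been trained on 2 tasks, called SWM and OMT in the labels, with tissue taken 24 h after a sequence of 7 days, and no untrained animals are part of the comparison. The labels do not state that each array holds the RNA of 1 rat. The p-values therefore measure the spread between these samples, and the number of arrays limits the precision.

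Insulin-like growth factor I, encoded by Igf1, is a secreted growth factor that reaches the brain from the circulation and is also made within it. It acts through the type 1 receptor, a tyrosine kinase that passes the signal to the PI3K-Akt and Ras-MAPK routes, while the type 2 receptor binds IGF-II and carries it to lysosomes. Secreted binding proteins hold the growth factors in the extracellular fluid and set how much of them is free to bind a receptor.

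Each probe set yields a signal and a detection call, which is present, marginal or absent. The call compares probes that match the transcript with partners that carry a mismatch, so a probe set can have a signal and still be called absent. A probe set was tested when at least 9 of the 29 arrays called it present. Of the 18 probe sets of the axis 4 passed this filter, or 22.2%, against 44.2% of all probe sets on the array. They belong to 3 genes, with 2 probe sets for Igf1r and 1 each for Igfbp2 and Igfbp6. Among the 14 that did not pass, 13 were called present on none of the 29 arrays, or 72.2% of the 18. Of all probe sets on the array, 45.1% were never called present. The values below are log2 signals, with signals under a floor of 160.8 set to that floor, and a level is not compared between probe sets.

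**Figure D1:**
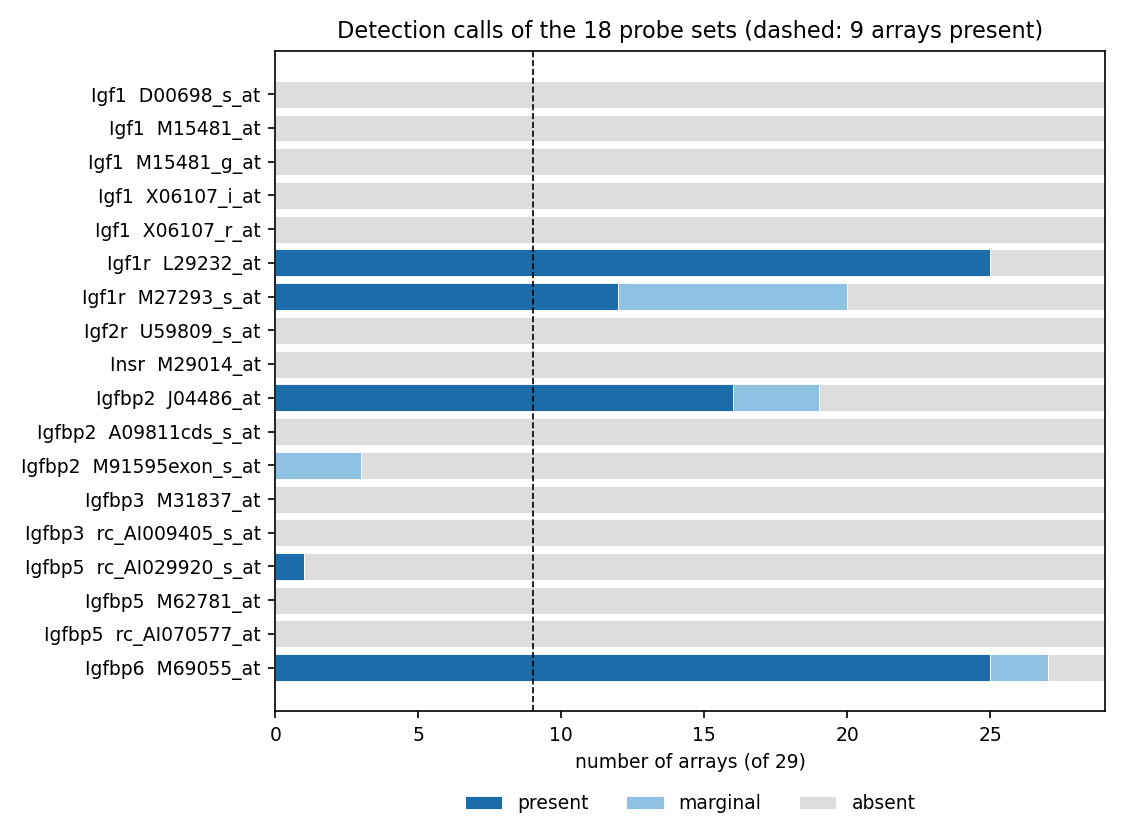
Number of the 29 arrays on which each of the 18 probe sets was called present (dark blue), marginal (light blue) or absent (grey), with probe sets down the page and the number of arrays along the horizontal axis. The dashed line marks 9 arrays present, the filter for testing, which 4 probe sets passed. Igf1r L29232_at and Igfbp6 M69055_at were each present on 25 arrays, Igfbp2 J04486_at on 16 and Igf1r M27293_s_at on 12.

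None of the 4 tested probe sets changed with age past the threshold. In aged vs young rats 0 of 4 had an adjusted p under 0.05 (limma, Benjamini-Hochberg over 3861 probe sets), against 1.66% of all probe sets tested. In mid-aged vs young rats 0 of 4 passed, against 0.414%, and in aged vs mid-aged rats 0 of 4, against 0.0518%. An F test over the 3 ages called 0 of 4, against 1.32%. At an unadjusted p under 0.05 there was 1 of 4 aged vs young (Igfbp6), where 14.2% of all probe sets tested lay, and 1 of 4 mid-aged vs young (Igfbp2), where the share was 11.2%. Aged vs mid-aged it was 0 of 4, against 5.18%. Aged vs young, 2 of the 4 differences were positive and 2 negative, with a median of -0.0039 beside -0.015 over all probe sets tested. Since tissue was measured, fewer cells of a type and less RNA per cell cannot be told apart in any of these values.

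The share of probe sets called present ran from 35.6% to 46.5% over the arrays. The ratio of the 3′ to the 5′ control probe set of Gapdh had a median of 0.939 at 4 months, 0.862 at 14 months and 0.988 at 24 months. Its highest values were 1.29 at 4 months, 1.21 at 14 months and 1.76 at 24 months. The names of the array columns come in a longer and a shorter style, and the labels do not say what the style stands for. The shorter style marks 5 of 9 arrays from young, 4 of 10 from mid-aged and 0 of 10 from aged rats, so values within each style are given beside the results. Of the 6 arrays least correlated with the rest 1 was young, 2 were mid-aged and 3 aged. As a check of the tissue, 9 of 9 neuronal, 9 of 9 astrocyte and 8 of 8 oligodendrocyte markers on the array were present on enough arrays to be tested. So were 8 of 9 interneuron, 4 of 9 microglia, 4 of 9 endothelial, 6 of 11 meningeal fibroblast, 2 of 4 choroid plexus and 2 of 3 blood markers. No list was of markers of CA1 itself. The summed signal of the 2 choroid plexus genes had a median of 2640 at 4 months, 2566 at 14 months and 2575 at 24 months. Its highest values were 4605, 27690 and 6535 in that order.

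The ligand Igf1 was not detected. All 5 of its probe sets were called absent on all 29 arrays, 145 calls in all. D00698_s_at lay at or under the floor on 28 arrays and X06107_i_at on 21. X06107_r_at carried signals of 532 to 898 and M15481_g_at of 171 to 870, both absent throughout. M15481_at ran from 112 to 1041. For X06107_r_at the median signals were 693 at 4 months, 780 at 14 months and 688 at 24 months. With each group below the detection call, no fold is given for Igf1, and a change in its transcript was not detectable with these probe sets.

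The type 1 receptor, Igf1r, was the detected receptor of the axis. Its probe set L29232_at was called present on 5 of 9 arrays from young, 10 of 10 from mid-aged and 10 of 10 from aged rats. Its log2 signal ran from 8.86 over a median of 9.55 to 10.31 on young arrays. On mid-aged arrays it ran from 9.27 over 9.80 to 10.50, and on aged arrays from 9.57 over 9.96 to 10.21. All 10 aged arrays lay above the young median, but the ranges overlap and no aged array exceeded the highest young one. The mean was 9.90 ± 0.20 (SD, n = 10) in aged and 9.62 ± 0.50 (SD, n = 9) in young rats, a difference of 0.28 ± 0.16 (SE) with an adjusted p of 0.450 (limma). The 95% interval of that fold ran from 0.966 to 1.53. Mid-aged rats, at 9.86 ± 0.37 (SD, n = 10), stood 0.24 above young ones (limma adjusted p = 0.611), and aged rats 0.04 above mid-aged ones (adjusted p = 0.975). The medians thus follow the order of age, and no neighbours in that order differ beyond their spread.

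The young arrays of L29232_at divide by the style of their column names. It was called present on 4 of 4 young arrays of the longer style and on 1 of 5 of the shorter style, and its mean log2 signal was 9.97 ± 0.38 (SD, n = 4) in the longer and 9.34 ± 0.41 (SD, n = 5) in the shorter. Mid-aged arrays averaged 9.96 ± 0.40 (SD, n = 6) in the longer and 9.71 ± 0.31 (SD, n = 4) in the shorter style. Among arrays of the longer style alone the aged vs young difference was -0.062 (limma adjusted p = 0.924), and in a fit with a term for style it was 0.044 (adjusted p = 0.934). It was larger in the deposited series value table, at 0.79 (limma adjusted p = 0.190), and with array weights, at 0.43 (adjusted p = 0.0737). Mid-aged vs young it was -0.00092 (limma adjusted p = 1) in the longer and 0.37 (adjusted p = 0.398) in the shorter style. The aged vs young value of this probe set thus moved with the column-name style, and the part of the style in it was not tested beyond these fits.

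In the fit of all arrays, the second Igf1r probe set, M27293_s_at, had differences of the opposite sign. It was called present on 3 of 9 arrays from young, 7 of 10 from mid-aged and 2 of 10 from aged rats, and marginal on 8 arrays in all. Its log2 signal ran from 9.00 over a median of 9.37 to 9.66 on young, from 8.61 over 9.13 to 9.74 on mid-aged and from 8.33 over 9.20 to 9.74 on aged arrays. The lowest 3 aged arrays lay below every young array and 1 aged array lay above all of them, so the aged group was the widest. Of the lowest, aged 3 at 8.50 and aged 4 at 8.33 had Gapdh ratios of 1.39 and 1.76, beside at most 1.29 on young arrays. Both were among the 6 arrays least correlated with the rest. Aged 6, at 8.74, had a ratio of 1.04 and was not among those 6. Aged rats averaged 9.11 ± 0.46 (SD, n = 10) and young rats 9.35 ± 0.23 (SD, n = 9), a difference of -0.24 ± 0.16 (SE, limma adjusted p = 0.525). The 95% interval of the fold was 0.676 to 1.06. Mid-aged rats stood at -0.18 relative to young ones (limma adjusted p = 0.711). Young arrays averaged 9.18 ± 0.17 (SD, n = 4) in the longer and 9.49 ± 0.16 (SD, n = 5) in the shorter style, with 0 of 4 and 3 of 5 called present. In the longer style alone the aged vs young difference was -0.07 (limma adjusted p = 0.935), the same sign as that of L29232_at there, -0.062. With the style as a term it was -0.095 for M27293_s_at (limma adjusted p = 0.846). With the 6 least correlated arrays left out it was -0.048 (limma adjusted p = 0.909).

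Across the 29 arrays, with the mean of each age taken away, the log2 signals of the 2 Igf1r probe sets had a Pearson r of -0.07, given as a description since all values share the same arrays. Over all pairs of the 4 tested probe sets r lay between -0.07 and 0.28, the highest between Igfbp6 and Igfbp2. The probe sets of other genes nearest to L29232_at by this measure were those of Ntrk2, the BDNF receptor (r = 0.82), Bbx (r = 0.81) and Glg1, a Golgi glycoprotein (r = 0.80). Nearest to M27293_s_at were Mip, known as a water channel of the lens (r = 0.80), Pcdhga11, a protocadherin (r = 0.80), and Slit1, an axon guidance ligand (r = 0.79). The neighbours of one Igf1r probe set thus held none of those of the other among the first 3.

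**Figure D2:**
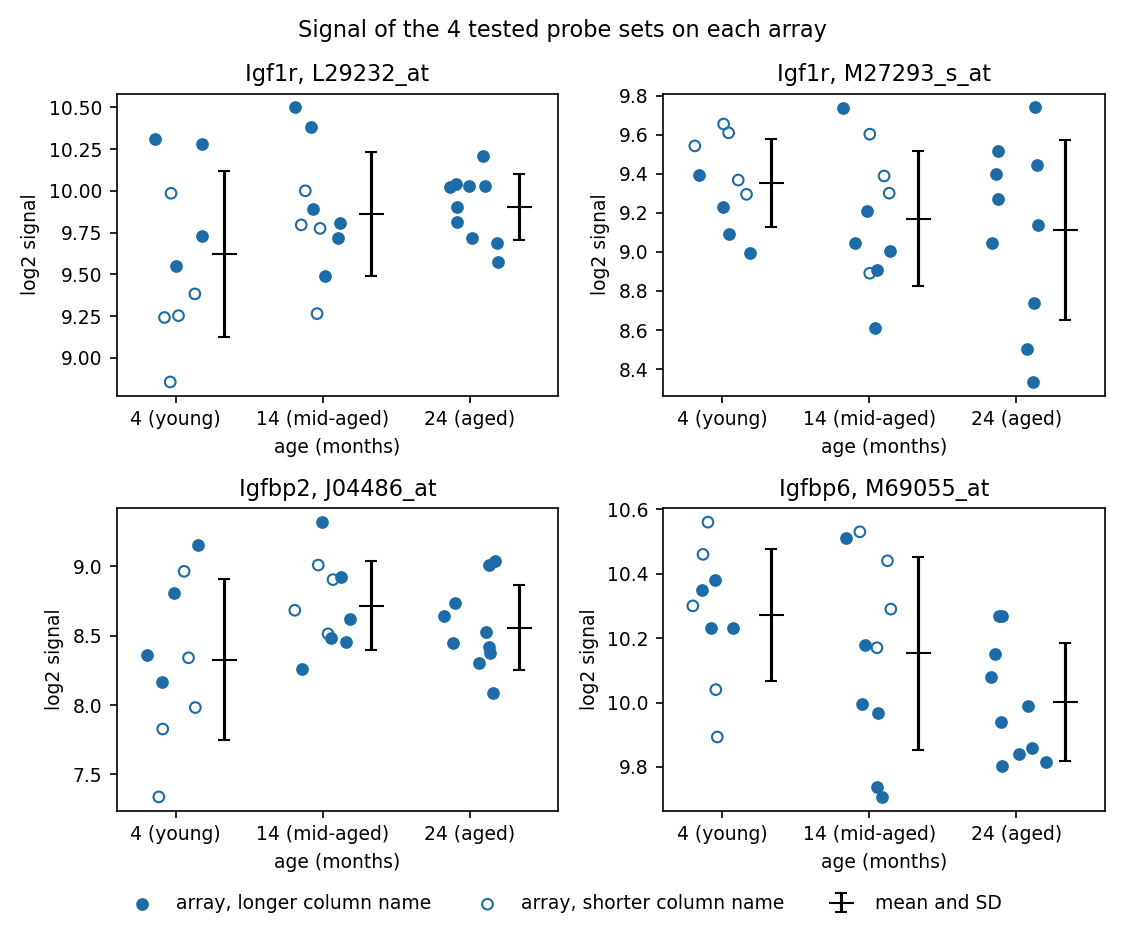
Log2 signal of the 4 tested probe sets on each array (points, filled for the longer and open for the shorter column-name style) at 4, 14 and 24 months, with the mean and SD of each age. Most open points of Igf1r L29232_at at 4 months lie low in that panel, and all 10 aged points of Igfbp6 lie below the young median of 10.30. Vertical axes differ between panels.

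The other receptors were called absent on every array. Igf2r, which clears IGF-II and also binds mannose 6-phosphate, had signals from 175 to 1217 on U59809_s_at. Its median signals were 504 at 4 months, 673 at 14 months and 641 at 24 months. Insr, the insulin receptor, which can pair with the type 1 receptor in hybrids, had signals from 78.9 to 722 on M29014_at, with medians of 339 at 4 months, 513 at 14 months and 317 at 24 months. Both ranges overlapped between all ages, and without a present call no fold is given.

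Igfbp2, a binding protein known in the brain from glia, choroid plexus and meninges, was detected by 1 of its 3 probe sets. J04486_at was called present on 5 of 9 arrays from young, 6 of 10 from mid-aged and 5 of 10 from aged rats. Its log2 signal ran from 7.34 over a median of 8.34 to 9.15 on young, from 8.26 over 8.65 to 9.32 on mid-aged and from 8.09 over 8.49 to 9.04 on aged arrays. The mid-aged group was the highest by median, with 9 of 10 arrays above the young median and 1 above every young array. Mid-aged rats averaged 8.72 ± 0.32 (SD, n = 10) and young rats 8.33 ± 0.58 (SD, n = 9), a difference of 0.39 ± 0.18 (SE) that did not pass (limma adjusted p = 0.416). The 95% interval of that fold was 1.02 to 1.69 before adjustment. Aged rats, at 8.56 ± 0.30 (SD, n = 10), stood 0.23 above young ones (limma adjusted p = 0.605), with an interval of the fold from 0.910 to 1.52, and at -0.16 relative to mid-aged ones (adjusted p = 0.925).

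The young arrays of J04486_at also divided by the style of their column names, while the mid-aged means stood in the other order. Of the young arrays, 4 of 4 of the longer style called it present with a mean of 8.62 ± 0.45 (SD, n = 4), and 1 of 5 of the shorter style did with a mean of 8.09 ± 0.61 (SD, n = 5). Mid-aged arrays averaged 8.68 ± 0.38 (SD, n = 6) in the longer and 8.78 ± 0.22 (SD, n = 4) in the shorter style. They were called present on 3 of 6 and 3 of 4 arrays. Within the longer style mid-aged rats stood 0.06 above young ones (limma adjusted p = 0.991), and within the shorter style 0.69 above them (adjusted p = 0.208). In a fit with a term for style they stood 0.36 above young ones (limma adjusted p = 0.46). Aged vs young, the difference in the longer style was -0.06 (limma adjusted p = 0.932), and with the style as a term 0.12 (adjusted p = 0.835). With the floor raised to the 75th percentile of absent signals, the aged vs young difference was -0.020 (limma adjusted p = 0.968) and the mid-aged vs young difference 0.071 (adjusted p = 0.864). The series value table gave larger values, 0.52 aged vs young (limma adjusted p = 0.374) and 0.68 mid-aged vs young (adjusted p = 0.320).

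The 2 other Igfbp2 probe sets were never called present. M91595exon_s_at was marginal on 3 arrays and had signals from 114 to 1175. A09811cds_s_at lay at or under the floor on 19 arrays. Among all other probe sets, those nearest to J04486_at across the 29 arrays, with age means taken away, were Rhoa, a small GTPase (r = 0.66), Stx7, an endosomal fusion protein (r = 0.63), and Dkc1, which modifies ribosomal RNA (r = 0.60). The Rhoa probe set D84477_at itself rose aged vs young by 0.88 ± 0.21 (SE, limma adjusted p = 0.0165). Stx7 at 0.63 (limma adjusted p = 0.157) and Dkc1 at 0.14 (adjusted p = 0.601) did not pass.

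Igfbp3, the main carrier of the growth factors in blood, and Igfbp5, a binding protein that also attaches to extracellular matrix, were below the filter. Igfbp3 was absent on all 29 arrays by both of its probe sets, with highest signals of 367 on M31837_at and 288 on rc_AI009405_s_at. Of the 3 Igfbp5 probe sets, rc_AI029920_s_at was called present on 1 mid-aged array and absent on the other 28, with a highest signal of 752. M62781_at lay at or under the floor on 23 arrays and rc_AI070577_at on all 29. No fold is given for either gene.

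Igfbp6, a binding protein that prefers IGF-II over IGF-I, had the smallest p of the axis. M69055_at was called present on 9 of 9 arrays from young, 9 of 10 from mid-aged and 7 of 10 from aged rats. Its log2 signal ran from 9.89 over a median of 10.30 to 10.56 on young, from 9.71 over 10.17 to 10.53 on mid-aged and from 9.80 over 9.96 to 10.27 on aged arrays. All 10 aged arrays lay below the young median and 4 of them below every young array, while the ranges overlap. Aged rats averaged 10.00 ± 0.18 (SD, n = 10) and young rats 10.27 ± 0.21 (SD, n = 9), a difference of -0.27 ± 0.11 (SE). The fold was 0.830 with a 95% interval of 0.711 to 0.968. The unadjusted p of 0.0192 was the 300th smallest among 3861, and the difference did not pass (limma adjusted p = 0.247). Mid-aged rats, at 10.15 ± 0.30 (SD, n = 10), stood at -0.12 relative to young ones (limma adjusted p = 0.726) and aged rats at -0.15 relative to mid-aged ones (adjusted p = 0.925). Medians and means of Igfbp6 were thus lower at each later age, without a step beyond the spread.

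Within the longer column-name style the Igfbp6 difference was about as large, with aged arrays at 10.00 ± 0.18 (SD, n = 10) and young arrays at 10.30 ± 0.08 (SD, n = 4), or -0.30 (limma adjusted p = 0.412). With the style as a term it was -0.18 (limma adjusted p = 0.501), and with the 6 least correlated arrays left out -0.20 (adjusted p = 0.356). In the deposited series value table, another summary of the same arrays, it was 0.20 (limma adjusted p = 0.852). The sign depends on which deposited values are used. Mid-aged arrays of the shorter style, at 10.36 ± 0.16 (SD, n = 4), lay above those of the longer style, at 10.02 ± 0.30 (SD, n = 6).

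The probe sets nearest to Igfbp6 across arrays, with age means taken away, were those of Hspb1, a small heat shock protein (r = 0.71), Col1a1, a chain of type I collagen (r = 0.62), and Fbxl17l1 (r = 0.60). The Col1a1 probe set M27207mRNA_s_at itself fell by 0.57 ± 0.13 (SE), with means of 8.46 in aged and 9.03 in young rats (limma adjusted p = 0.0101). Col1a1 stands on a list of 12 markers of meningeal fibroblasts, of which 6 genes were measured by their brightest probe set. Of these, 1 rose (Ptgds, a prostaglandin D2 synthase) and 0 fell, and 4 of 6 differences were negative, with a median of -0.40. The brightest Col1a1 probe set, Z78279_g_at, stood at -0.44 (limma adjusted p = 0.0721) and Col3a1, another fibrillar collagen, at -0.62 (adjusted p = 0.0760). Lum, the matrix proteoglycan lumican, stood at -0.36 (limma adjusted p = 0.259). Dcn stood at -0.70 (limma adjusted p = 0.167) by its brightest probe set, called present on 12 arrays. Its other probe sets stood at -0.18, -0.40 and -0.22 (limma adjusted p = 0.558, 0.280 and 0.634). Mgp had the opposite sign, 0.11 (limma adjusted p = 0.828). The summed signal of the 6 genes, in which Ptgds is the largest part, ran from 9542 to 14740 in aged and from 7457 to 10040 in young rats. Aldh1a2, Bgn, Col1a2, Fmod and Slc6a13 were never called present. The part of these markers in the Igfbp6 value was not tested.

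**Figure D3:**
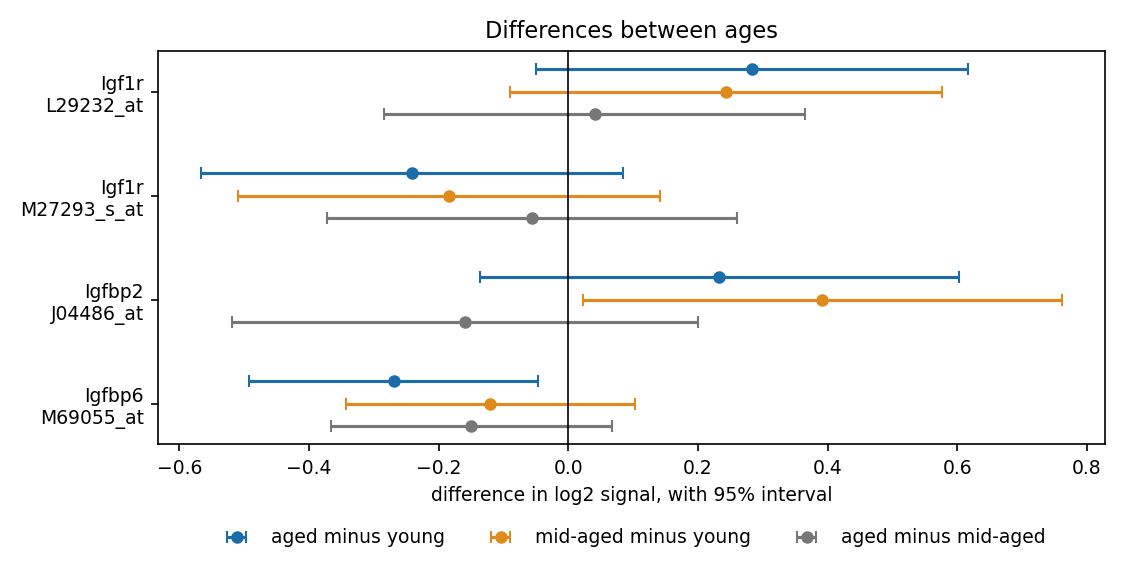
Difference in log2 signal between ages for the 4 tested probe sets (points) with 95% intervals of limma, for aged minus young (blue), mid-aged minus young (orange) and aged minus mid-aged (grey). The intervals of Igfbp6 aged minus young and of Igfbp2 mid-aged minus young lie to one side of 0 before adjustment, and the 2 Igf1r probe sets lie on opposite sides of it aged minus young.

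The SD within an age was 0.37 for L29232_at, 0.36 for M27293_s_at, 0.41 for J04486_at and 0.23 for M69055_at, beside a median of 0.27 over all probe sets tested. The first 3 were noisier than 78.5%, 77.0% and 86.0% of them. The smallest difference called aged vs young on any probe set was 0.34 on the log2 scale. Without regard to sign, the median size of the 4 aged vs young differences was 0.26, beside 0.12 over all probe sets tested. The 95% intervals reach up to 1.53-fold for Igf1r L29232_at and 1.52-fold for Igfbp2, and down to 0.676-fold for Igf1r M27293_s_at and 0.711-fold for Igfbp6, and smaller changes lie within these intervals.

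**Figure D4:**
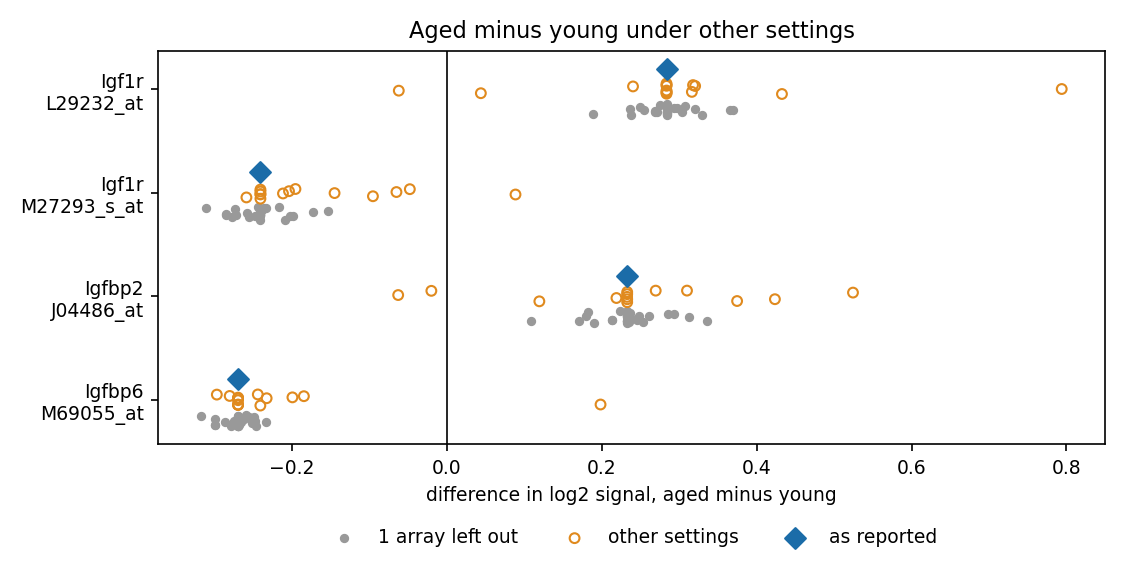
Aged minus young difference in log2 signal of the 4 tested probe sets as reported (blue diamonds), with 1 array left out at a time (grey points) and under the other settings run (orange circles). With 1 array left out each kept its sign, from 0.19 to 0.37 for L29232_at, from -0.31 to -0.15 for M27293_s_at, from 0.11 to 0.34 for Igfbp2 and from -0.32 to -0.23 for Igfbp6, while other settings crossed 0 for every one.

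The other genes of the family and the signalling routes behind the receptors were followed through 64 genes in 4 lists. Of these, 44 are on the array under a single name, and 28 had a tested probe set, with 45 probe sets in all. None of the 45 passed in any comparison (limma, lowest adjusted p = 0.126 aged vs young, 0.479 mid-aged vs young and 0.925 aged vs mid-aged). At an unadjusted p under 0.05 there were 4, 0 and 2 of the 45 in that order. Of all probe sets tested, 14.2%, 11.2% and 5.18% lay there. Aged vs young, 9 of the 28 genes had positive and 19 negative differences on their brightest probe set, between -0.41 and 0.23. Over all probe sets tested 46.4% of the differences were positive. The median of the 28 genes was -0.08 beside -0.015 over all probe sets tested.

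Among the other family genes 4 of 8 on the array were tested and all 4 aged vs young differences were negative. Igf2, the second growth factor, was called present on 23 arrays by M17960_g_at and averaged 10.41 in aged, 10.56 in mid-aged and 10.50 in young rats, with an aged vs young difference of -0.10 ± 0.10 (SE, limma adjusted p = 0.712). Ins2, an insulin gene, was called present on 29 arrays by J04807mRNA_i_at. It averaged 11.60 in aged and 11.85 in young rats, a difference of -0.25 ± 0.12 (SE, limma adjusted p = 0.334). Ins1 and Insrr, named here after their values were seen, were also called present on 29 arrays. They stood at -0.13 (limma adjusted p = 0.786) and -0.19 (adjusted p = 0.627) aged vs young. Ins1 and Ins2 are close copies, and whether their probe sets read separate transcripts was not tested. Of the 4 without a tested probe set, named here after their values were seen, Ghr, the growth hormone receptor, Igfbp1, and Igfals, which holds the growth factors in a large complex in blood, were never called present, and Gh1 on at most 3 arrays.

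Of the adaptors and regulators at the receptor, 8 of 13 on the array were tested. Sh2b2, an adaptor that binds activated receptor kinases, had the smallest p of all 4 lists, with a mean of 9.15 in aged and 9.55 in young rats, or -0.41 ± 0.13 (SE, limma adjusted p = 0.126). Ptpn1, a phosphatase that turns the insulin receptor off, stood at -0.08 ± 0.17 (SE, limma adjusted p = 0.881) by its brightest probe set. Of its other probe sets, rc_AI113289_s_at had the opposite sign, 0.10 (limma adjusted p = 0.886). Grb2, named here after its values were seen, stood at 0.09 (limma adjusted p = 0.570) by its brightest probe set. Its other probe sets stood at 0.36 (rc_AI170776_s_at, limma adjusted p = 0.311) and -0.34 (D49847_at, adjusted p = 0.360). The 5 without a tested probe set, named here after their values were seen, were Irs1, Irs2 and Irs3, the docking proteins of both receptors, Ptpn11, a phosphatase that helps to activate Ras, and Socs3, a feedback inhibitor. Irs2 was called present on 1 array and the other 4 on none.

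In the PI3K-Akt branch 13 of 19 genes on the array were tested, with 6 positive and 7 negative aged vs young differences and a median of -0.01. Eif4ebp1, a repressor of translation that mTOR inactivates, averaged 9.03 in aged and 8.80 in young rats, a difference of 0.23 ± 0.16 (SE, limma adjusted p = 0.539). Gsk3a, a kinase that Akt inhibits, stood at -0.14 ± 0.10 (SE, limma adjusted p = 0.570). Gsk3b, named here after its values were seen, stood at -0.42 ± 0.18 (SE, limma adjusted p = 0.268) on X53428cds_s_at. Its brightest probe set, X73653_at, stood at -0.07 (limma adjusted p = 0.880). In the Ras-MAPK branch 3 of 4 genes were tested. Map2k2 and Map2k1, the kinases that activate ERK, stood at -0.16 ± 0.08 (SE, limma adjusted p = 0.393) and -0.12 ± 0.07 (SE, adjusted p = 0.409). Another Map2k1 probe set, D14591_s_at, had the opposite sign, 0.08 (limma adjusted p = 0.828).

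**Figure D5:**
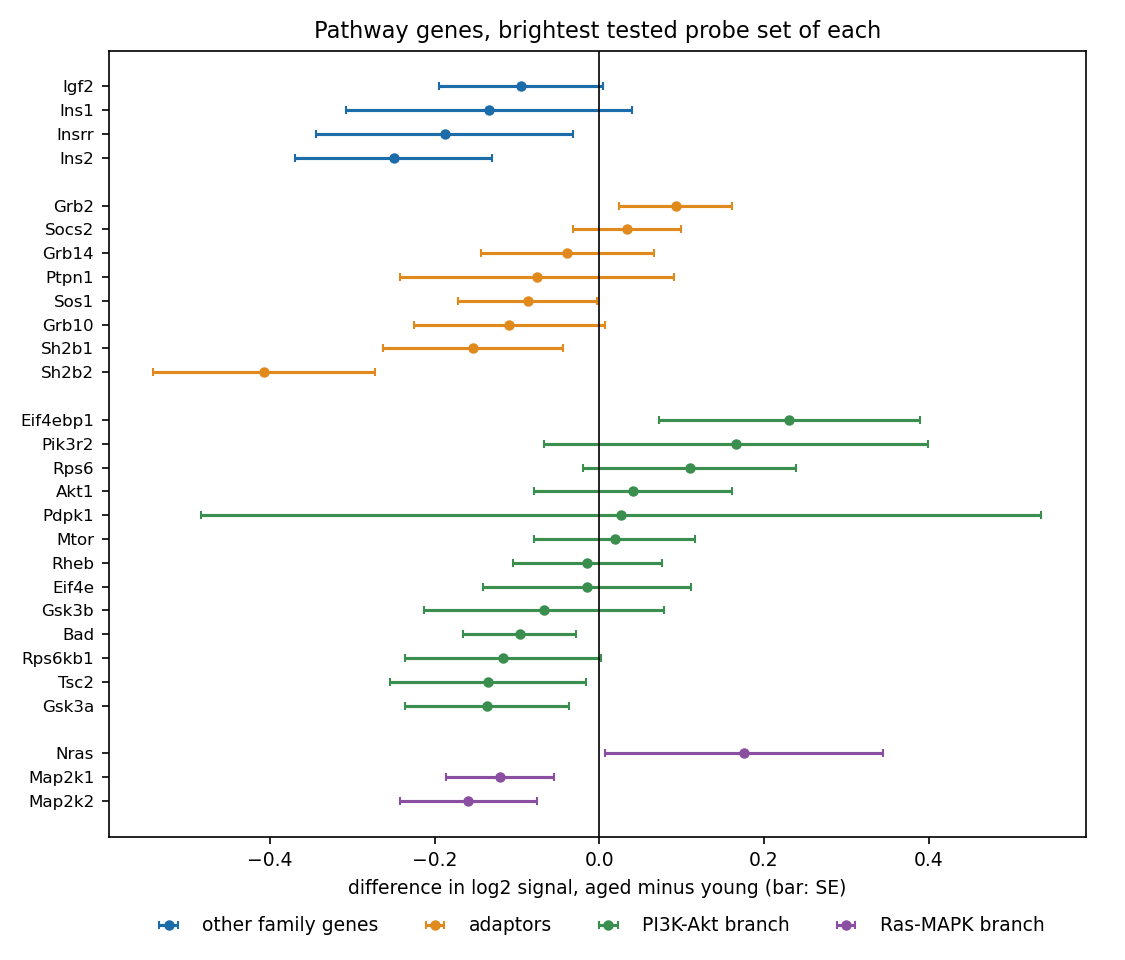
Aged minus young difference in log2 signal (points, with SE) for the brightest tested probe set of 28 genes in 4 lists, other family genes (blue), adaptors (orange), the PI3K-Akt branch (green) and the Ras-MAPK branch (purple). None passed the threshold, and Sh2b2 at -0.41 and Eif4ebp1 at 0.23 mark the ends of the range.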

How the data were processed

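The authors deposited 1 file per array with an intensity (signal) and a detection call for each of 8799 probe sets, per the file headers, whose names are those of Microarray Suite 5 output of unstated version. One file also held a column of another array, and that 1 column was not used. The deposited series value table, on an unlogged intensity scale with values below 0, followed each array by rank (lowest rank correlation 0.851) and served as an alternative. Its column medians ran from 315 to 468, and how it was made is not stated in the labels.

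The 59 controls were left out, and arrays were scaled to one mean without the lowest and highest 2% (factors 0.999 to 1.00). Signals were floored at the median of absent values, 160.8, and logged. Probe sets present on at least 9 arrays (3861) were fitted over the 3 ages with limma 3.58.1 in R 4.3.3 (two-sided, Benjamini-Hochberg, threshold 0.05). Figures used Python 3.11.15 and matplotlib 3.10.9. The platform annotation gives 7006 probe sets 1 gene, 308 several and 1426 none.

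The members and gene lists were chosen with earlier results of these data known. Named are all members and the 3 probe sets nearest to each tested one. Of each pathway list, genes past the threshold are named. With none past it, the 2 genes with the smallest F test p on their brightest probe set are named. Dimmer probe sets did not enter that choice, and genes named after their values were seen are marked as such. Alternatives covered scaling, the series table, filter, floor, intensity trend, array weights, replicate block, column-name style, fits of 2 ages, and leaving out the 6 arrays least correlated with the rest or each array in turn. Marker lists covered 9 cell types, and the other results of those lists, aged vs young, are 4 of 4 measured microglia genes, 1 of 8 oligodendrocyte genes and 2 of 2 blood genes that rose, and 0 of 9 neuronal, 0 of 8 interneuron, 0 of 9 astrocyte, 0 of 4 endothelial and 0 of 2 choroid plexus genes that passed (limma).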

Additional observations from a re-analysis of the deposited data

How the results depend on the processing

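No probe set of the axis passed in any comparison under the 16 other settings, where it could be fitted, or with any 1 of the 29 arrays left out. The lowest adjusted p was 0.0737, for Igf1r L29232_at aged vs young with array weights. Whether the replicate numbers pair the samples is not known. In same-numbered pairs, with age means taken away, r was over 0.1 in 13 of 28 and ran from -0.20 to 0.58. Pairs of unlike number were not set beside these, so the values cannot decide it. With the replicate block 0 members passed, with Igfbp6 at -0.28 aged vs young.

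Signs turned as follows. In the deposited series table M27293_s_at stood at 0.089 aged vs young, 0.0037 mid-aged vs young and 0.085 aged vs mid-aged, and Igfbp6 at 0.20 aged vs young and 0.83 mid-aged vs young. With a floor at the 75th percentile Igfbp2 stood at -0.020 aged vs young. In the longer style L29232_at stood at -0.062 aged vs young, -0.00092 mid-aged vs young and -0.061 aged vs mid-aged, Igfbp2 at -0.063 aged vs young and M27293_s_at at 0.028 aged vs mid-aged. In the shorter style Igfbp6 stood at 0.11 mid-aged vs young. Aged vs mid-aged, L29232_at stood at -0.13 with the style as a term, and M27293_s_at at 0.048 with the style as a term, 0.035 with array weights and 0.14 without the 6 least correlated arrays. With 1 array left out, aged vs mid-aged ran from -0.026 to 0.11 for L29232_at (below 0 without mid-aged 4 or 7) and from -0.13 to 0.030 for M27293_s_at (above 0 without aged 3 or 4 or mid-aged 6). The cause was not tested.

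Over all probe sets, 64 passed aged vs young, against 16 in the longer style, 326 with array weights and 131 without the 6 arrays. Mid-aged vs young 16 passed, against 0 in the longer style, 8 in the series table, 87 with array weights and 63 without the 6 arrays. Aged vs mid-aged 2 passed, against 0 in the series table, without a filter, in a fit of the 2 ages and without the 6 arrays. With 1 array left out these counts ran from 52 to 84, from 8 to 22 (8 to 10 without mid-aged 4 or 7 or young 7, 8 or 9) and from 0 to 4. The last was 0 without aged 2 or mid-aged 6 or 10, 1 without aged 3, 4 or 9 or mid-aged 2, 3 or 5, and 4 without mid-aged 4. The 14 probe sets that the filter left out were limited by their detection calls, some with signals well above the floor. Fitted without the filter, 0 of the 18 probe sets of the axis passed in any comparison.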
